A study of Arabidopsis thaliana with 11 samples.

Results

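5-methylcytosine (m5C) in transfer RNA of *trm4b-1* seedlings was set against that of wild type seedlings, for every cytosine with a number in both columns of the seedling table. This held for 32 of the 39 listed cytosines, in 17 of the 24 tRNAs that had a listed site. The *trm4b-1* plants were *Arabidopsis thaliana* with a homozygous T-DNA insertion in *TRM4B* (AT2G22400), in the Columbia background. The line was taken by the study as lacking *TRM4B* transcript, from semi-quantitative RT-PCR. Wild type plants were Columbia seedlings, and both genotypes were sampled 10 days after germination. These 4 libraries, 1 of *trm4b-1* and 3 of wild type, were part of a series of 11. RNA bisulfite sequencing (RBS-seq) was used, in which bisulfite converts cytosine to uracil, read as T, unless it is methylated, so that a C in the reads is taken as m5C. The level of a site is the percent of C among its C and T reads. The wild type level was deposited as the authors' mean of 3 libraries without its spread, and *trm4b-1* had 1 library, so replicate error could not be estimated for either genotype and the comparison is descriptive, with no test. The number of reads behind each level was unknown, and so was the precision of each percentage.

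TRM4, called NSUN2 in animals, belongs to a family of enzymes that transfer a methyl group from S-adenosylmethionine to carbon 5 of cytosine in RNA. In yeast and animals it acts on the junction between the variable loop and the T stem of tRNA, where C48, C49 and C50 lie. C48 ends the variable loop, and C49 and C50 open the T stem and pair with bases on its other strand. C38 lies in the anticodon loop and is the target of a different enzyme, TRDMT1 (DNMT2). C72 lies in the acceptor stem, and the study cites it as a position also methylated by NSUN2 in human tRNA. *Arabidopsis* has a pair of TRM4 homologues, TRM4A and TRM4B.

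The sequences below are the authors' consensus sequences, 5′ to 3′ and written as DNA, with the listed cytosines in capitals. The first 7 are the tRNAs with 2 or more listed sites, shown because neighbouring cytosines of a single molecule can be compared in them.
tRNA Asp(GTC): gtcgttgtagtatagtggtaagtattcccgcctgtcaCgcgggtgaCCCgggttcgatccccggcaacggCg
tRNA Gly(GCC): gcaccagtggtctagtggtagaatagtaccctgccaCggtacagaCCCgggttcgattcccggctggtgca
tRNA Gly(TCC): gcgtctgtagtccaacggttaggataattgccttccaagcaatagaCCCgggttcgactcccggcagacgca
tRNA Glu(TTC): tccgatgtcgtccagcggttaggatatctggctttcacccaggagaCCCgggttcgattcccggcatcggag
tRNA Gly(CCC): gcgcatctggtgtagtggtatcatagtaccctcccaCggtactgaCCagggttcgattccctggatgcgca
tRNA Glu(CTC): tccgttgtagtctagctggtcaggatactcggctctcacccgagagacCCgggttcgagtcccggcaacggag
tRNA Gln(CTG): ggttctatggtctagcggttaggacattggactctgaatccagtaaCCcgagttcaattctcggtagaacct
The capitals near the 3′ end are C48, C49 and C50, in that order, where all 3 were listed. Glu(CTC) had C49 and C50 listed, and Gly(CCC) and Gln(CTG) had C48 and C49 listed. The capital in the middle of Asp(GTC), Gly(GCC) and Gly(CCC) is C38, and the capital next to the last base of Asp(GTC) is C72.

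The next 7 sequences are those of tRNAs with 1 listed site. The first 5 had the lowest and the highest share of the wild type level among such tRNAs, and His(GTG) and Gln(TTG) were added after their values were seen, because they share the letters ACCTG at the junction, with a different cytosine of it listed.
tRNA Ser(TGA): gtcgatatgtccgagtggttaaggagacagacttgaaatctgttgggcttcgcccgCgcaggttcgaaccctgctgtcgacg
tRNA Ala(AGC): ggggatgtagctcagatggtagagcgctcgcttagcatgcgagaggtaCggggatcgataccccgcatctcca
tRNA Thr(TGT): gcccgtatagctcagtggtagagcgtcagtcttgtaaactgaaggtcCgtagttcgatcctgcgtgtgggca
tRNA Val(CAC): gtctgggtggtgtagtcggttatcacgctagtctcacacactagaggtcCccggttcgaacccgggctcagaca
tRNA Thr(CGT): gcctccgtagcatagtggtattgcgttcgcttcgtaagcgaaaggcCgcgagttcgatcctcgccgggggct
tRNA His(GTG): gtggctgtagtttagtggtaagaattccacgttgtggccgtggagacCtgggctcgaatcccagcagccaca
tRNA Gln(TTG): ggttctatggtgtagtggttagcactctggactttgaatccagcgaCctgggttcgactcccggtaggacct
The capital is C48 in Ser(TGA), Thr(CGT) and Gln(TTG), and C49 in the other 4.

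Each consensus stood for several genes, from 5 for Gly(CCC) and Thr(CGT) to 25 for Asp(GTC). The level at a site is therefore an average over loci. The first locus listed for Asp(GTC) was AT1G03515 at chr1:877648-877719, that for Gly(GCC) was AT1G06860 at chr1:2107398-2107468 and that for Gln(CTG) was AT2G16240 at chr2:7039094-7039165, on TAIR10 as the authors' list gives them. The 17 tRNAs stood for 195 loci, of which 194 are typed as tRNA genes in RefSeq's table (assembly TAIR10.1, used for gene types alone).

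Most cytosines at the junction of variable loop and T stem had a much lower level in *trm4b-1* than in wild type, while C38 and C72 differed by 2 to 4 percentage points. For sites at 20% or more in wild type, the call was lost where *trm4b-1* had at most 5%, reduced where it had more than that but was 20 or more points under wild type, and retained for the rest. By this rule 25 of the 32 sites (78.1%) were lost or reduced. Of these, 15 (46.9%) were lost, among them 10 at exactly 0%, and 10 (31.2%) were reduced. The study listed cytosines at a minimum level of 20%, and all 32 compared sites were at 23% or more in wild type. These shares therefore describe sites methylated in wild type, and a gain at an unlisted cytosine could not be seen. Since a difference in points cannot exceed the wild type level, the share of the wild type level kept is given beside it, as the *trm4b-1* level in percent of the wild type level. The median over the 32 sites was -52.5 points, with 13.8% of the wild type level kept.

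**Figure D1:**
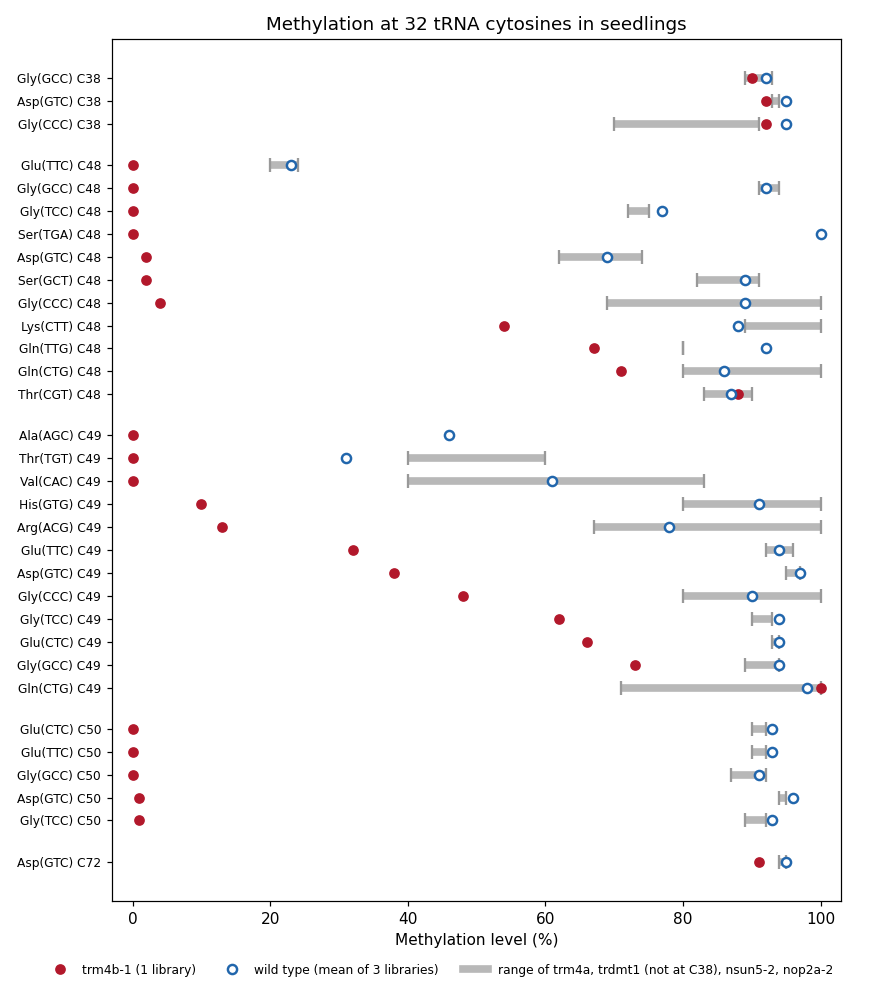
Methylation level in percent at the 32 sites, grouped by structural position, in *trm4b-1* (filled points, 1 library) and wild type (open points, authors' mean of 3 libraries), with grey bars for the range of *trm4a*, *trdmt1* (not at C38), *nsun5-2* and *nop2a-2* seedlings. The 5 C50 sites stand at 0% or 1% in *trm4b-1*, the C49 sites run from 0% to 100%, and the 3 C38 sites lie at 90% to 92%.

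C50 was lost in every tRNA where it was measured. *trm4b-1* had 0% in Glu(CTC), Glu(TTC) and Gly(GCC), against 93%, 93% and 91% in wild type. In Asp(GTC) and Gly(TCC) it had 1%, against 96% and 93% in wild type. The share of the wild type level kept thus lay between 0% and 1.08% over the 5 sites, the narrowest range of the 3 junction positions. All 5 sites stood in the same letters, ACCCG from the base before C48 to base 51, and all 5 T stems were made of 5 GC pairs. Any effect of those letters on C50 therefore cannot be told apart from that of the position. Gln(CTG) has the same letters without a listed C50. Of the 58 nuclear consensus sequences, 27 (46.6%) have a C at position 50, and 5 of them had it listed.

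The compared C48 sites formed a lower and an upper set of levels. In 7 of 11 sites *trm4b-1* kept between 0% and 4.49% of the wild type level. These were Gly(GCC) at 0% against 92%, Gly(TCC) at 0% against 77%, Glu(TTC) at 0% against 23%, Ser(TGA) at 0% against 100%, Asp(GTC) at 2% against 69%, Ser(GCT) at 2% against 89% and Gly(CCC) at 4% against 89%, with the *trm4b-1* level first. The other 4 kept 61.4% or more, and none of the 11 compared C48 sites lay between these sets. Lys(CTT) had 54% in *trm4b-1* and 88% in wild type. Gln(TTG) had 67% in *trm4b-1* and 92% in wild type, and Gln(CTG) had 71% against 86%. Thr(CGT) had 88% against 87%. The last 2 were retained, and Gln(TTG) and Lys(CTT) reduced. The median of the 11 sites was -67 points with 2.9% of the wild type level kept, but their mean was -54.9 points with 29.8% kept, since 4 sites stood far above the rest.

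C49 was the position at which part of the level was most often kept. Of 12 sites, 3 were lost, 8 were reduced and 1 was retained, with a median of -44 points and 36.6% of the wild type level kept. Ordered by that share, Gln(CTG) came first with 100% in *trm4b-1* against 98% in wild type. Gly(GCC) had 73% against 94%, Glu(CTC) 66% against 94% and Gly(TCC) 62% against 94%. Gly(CCC) had 48% against 90%, Asp(GTC) 38% against 97% and Glu(TTC) 32% against 94%. Arg(ACG) had 13% against 78% and His(GTG) 10% against 91%. Ala(AGC), Thr(TGT) and Val(CAC) had 0%, against 46%, 31% and 61% in wild type. The shares ran through the whole scale without a gap like that at the compared C48 sites, from 0% to 102%. Among the 8 C49 sites with a value in every column of the series they ran from 11% to 77.7%, and all 8 were called reduced.

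**Figure D2:**
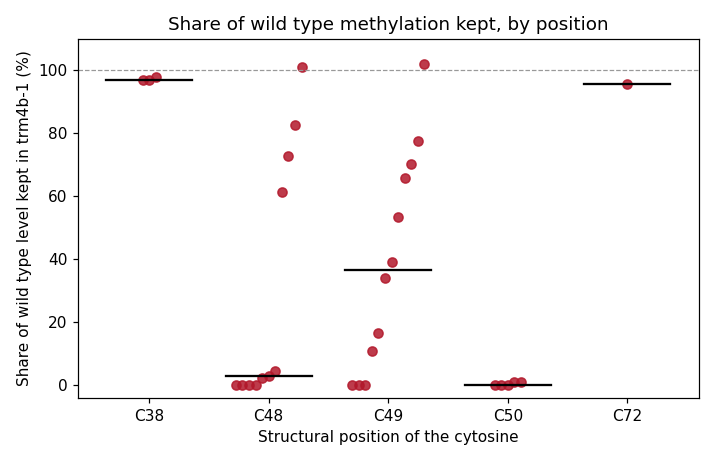
Share of the wild type level kept in *trm4b-1*, in percent, for each site (points) by structural position, with the median of each position as a bar and 100% as a dashed line. C38 and C72 lie at 95.8% to 97.8%, C50 at 0% to 1.08%, and C48 is split into 7 sites at 4.49% or less and 4 sites at 61.4% or more.

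At the positions outside the junction the *trm4b-1* levels were close to those of wild type. C38 had 92% in Asp(GTC) and Gly(CCC), against 95% in wild type for each, and 90% in Gly(GCC), against 92%. C72 of Asp(GTC) had 91%, against 95% in wild type. In Asp(GTC), Gly(GCC) and Gly(CCC), then, a cytosine at 90% or more stood in the same tRNA as a junction cytosine at 4% or less. The deposited levels are per cytosine, so they do not say which states occurred together on 1 molecule.

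The 4 other single mutant seedling libraries, *trm4a*, *trdmt1*, *nsun5-2* and *nop2a-2*, were each mutated in a different RNA methyltransferase gene, sampled at the same age, and have *TRM4B* unmutated. Their values give the only spread between seedling libraries with *TRM4B* unmutated at these sites. They are other genotypes and not replicates of the wild type, and *trdmt1* was left out at C38, the position of its enzyme. Over 111 values at the listed sites their differences from wild type had an SD of 9.06 points and a median size of 3 points. Of these values 4 were themselves 20 or more points below wild type and would be called reduced: Val(CAC) C49 in *trm4a* at -21 points, Gln(CTG) C49 in *trdmt1* at -27 points, and C38 and C48 of Gly(CCC) in *nsun5-2* at -25 and -20 points. Reduced calls of a similar size in *trm4b-1*, such as -21 points at Gly(GCC) C49 and -25 points at Gln(TTG) C48, thus lie within differences seen at other sites without a *TRM4B* mutation. At sites with a value in every column of the series, the SD was 5.89 points over 97 values. Of those values 2 would be called, both in Gly(CCC) of *nsun5-2*. At least 1 of these libraries had a value at 30 sites, and at 26 of them (86.7%) the *trm4b-1* level was below the wild type level and below each such library. These 26 sites comprised 23 lost or reduced sites and 3 retained ones, Gln(CTG) C48 by 9 points, Asp(GTC) C72 by 3 points and Asp(GTC) C38 by 1 point. At Gly(GCC) C49, the reduced site with the smallest difference from wild type, -21 points, the 4 libraries lay between 89% and 94% and *trm4b-1* at 73%. At Lys(CTT) C48 they lay between 89% and 100%, with *trm4b-1* at 54%. At Gln(TTG) C48 only *trm4a* had a value, 80%, against which *trm4b-1* at 67% was 13 points lower. Ser(TGA) C48 and Ala(AGC) C49 had a value in none of the 4. Among seedlings with *TRM4B* unmutated, their levels of 0% can thus be set against the wild type mean alone.

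Levels varied less between libraries where every column of the series had a value. The range of the 4 libraries had a median of 4 points at the 25 fully measured sites and of 24.5 points at the 4 other sites with more than 1 value. *trm4b-1* had 20 of the fully measured sites lost or reduced. The 7 sites compared that lacked a value somewhere were Gln(TTG) C48, Ser(TGA) C48, Gln(CTG) C48 and C49, and C49 of Ala(AGC), Thr(TGT) and Val(CAC). They thus include the 3 lost C49 sites and the single retained one. Thr(TGT) C49, for example, was at 31% in wild type and at 40% to 60% in 3 of the other libraries, and Val(CAC) C49 was at 61% in wild type and at 40% to 83% in 3 of them.

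The 7 multi-site tRNAs lost different numbers of methyl groups. The sum of the levels over the listed sites of a tRNA is its mean number of m5C per molecule at those sites. Asp(GTC) averaged 2.24 in *trm4b-1* and 4.52 in wild type, a difference of -2.28. Gly(GCC) averaged 1.63 in *trm4b-1* against 3.69, and Gly(TCC) 0.63 against 2.64. The differences of -2.06 in Gly(GCC) and -2.01 in Gly(TCC) were of similar size, but Gly(TCC), which has no listed C38, was left with fewer methyl groups. Glu(TTC) averaged 0.32 in *trm4b-1* against 2.1, the lowest share kept of the 7, with 15.2%. Gly(CCC) averaged 1.44 against 2.74 and Glu(CTC) 0.66 against 1.87. Gln(CTG) averaged 1.71 against 1.84, and *trm4a* and *nop2a-2*, the other libraries of these 3 genotypes with values at both of its sites, gave 2 and 1.6. The *trm4b-1* sum was below that of *trm4a*, *nsun5-2* and *nop2a-2* in the other 6 tRNAs. In Asp(GTC), for example, these 3 libraries gave 4.38 to 4.54.

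**Figure D3:**
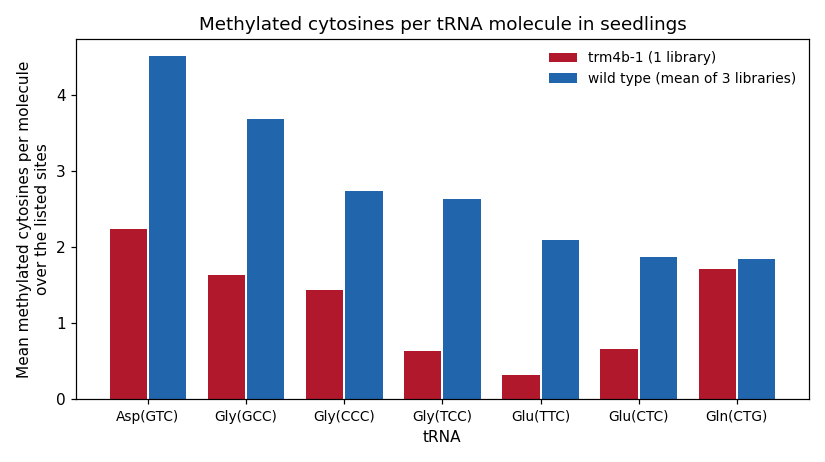
Mean number of methylated cytosines per molecule, summed over the listed sites of the 7 tRNAs with 2 or more sites, in *trm4b-1* (left bar, 1 library) and wild type (right bar, authors' mean of 3 libraries). *trm4b-1* has 2.24 in Asp(GTC) and 0.32 in Glu(TTC), against 4.52 and 2.1 in wild type, while the bars of Gln(CTG) stand at 1.71 and 1.84.

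Within a tRNA, C49 kept more than its neighbours on either side. In Asp(GTC), Gly(GCC), Gly(TCC) and Glu(TTC), which had all 3 junction sites, C49 kept 39.2%, 77.7%, 66% and 34% of the wild type level, while C48 kept 0% to 2.9% and C50 0% to 1.08%. In Gly(CCC), where the base after C49 is A, C49 kept 53.3% and C48 4.49%. In Glu(CTC) C49 kept 70.2% and C50 0%. The wild type levels of the C49 sites in these 6 tRNAs lay between 90% and 97%, so the order of their shares was also the order of their *trm4b-1* levels.

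The bases around the sites were then read from the authors' consensus sequences, of which 14 are printed above. For C49 the sites split by the length of the variable loop, counted from the end of the anticodon stem to C48. With a loop of 4 bases, in the aspartate, glutamate, glycine, histidine and Gln(CTG) tRNAs, 8 C49 sites kept 11% to 102% with 59.6% as the median. With a loop of 5 bases, in Ala(AGC), Arg(ACG), Thr(TGT) and Val(CAC), 4 sites kept 0% to 16.7%. These ranges overlapped through His(GTG), at 11%. The base before position 48 was A in all 8 tRNAs with the shorter loop and T in all 4 with the longer one. The letter and the loop length thus cannot be told apart here, and neither can the wild type level, which was 90% to 98% with the shorter loop and 31% to 78% with the longer one. Of the 4 sites, 3 also lacked a value in some libraries. Over the 58 nuclear consensus sequences, ACC from the base before position 48 to position 49, read on the tRNA strand, stood in 10 (17.2%). Of those 10, 8 had a listed C49, beside 14 of the 23 nuclear consensus sequences with a C at position 49.

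**Figure D4:**
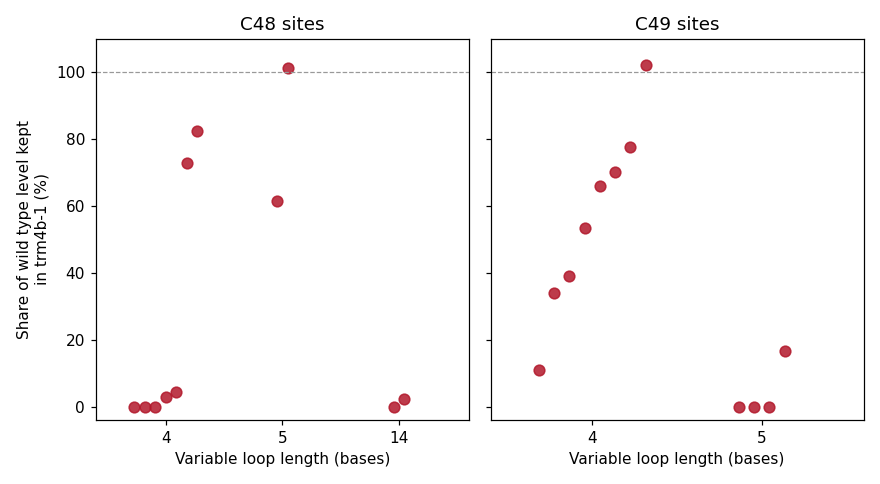
Share of the wild type level kept in *trm4b-1*, in percent, at the C48 sites (left panel) and C49 sites (right panel) by length of the variable loop in bases, with 1 point per tRNA. At C49 the 8 tRNAs with a loop of 4 bases span 11% to 102% and the 4 with a loop of 5 bases 0% to 16.7%, while at C48 the loops of 4 bases hold sites from 0% to 82.6%.

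At C48 lost and kept sites occurred with the same loop length and with the same letters from the base before C48 to base 51. Both sites in tRNAs with the long variable arm of 14 bases, Ser(GCT) and Ser(TGA), were lost. The 2 sites in loops of 5 bases, Lys(CTT) and Thr(CGT), kept 61.4% and 101%, while loops of 4 bases held lost and kept sites alike. In loops of 4 bases the letters were ACCCG from the base before C48 to base 51 in 5 tRNAs. There C48 kept 0% in Gly(GCC), Gly(TCC) and Glu(TTC) and 2.9% in Asp(GTC), but 82.6% in Gln(CTG). C49 in the same letters kept 34% to 77.7% in those 4 non-glutamine tRNAs and Glu(CTC), but 102% in Gln(CTG). Gln(CTG) differs from those 5 on both sides of these letters. Its T stem has 4 GC pairs and theirs have 5, and the base 2 before C48 is A in Gln(CTG) alone among the C48 sites and G in the 4 other C48 sites with these letters. Likewise His(GTG) and Gln(TTG) have the letters ACCTG, with C49 kept at 11% in His(GTG) and C48 at 72.8% in Gln(TTG), so that these are different cytosines of the same letters. The 3 glutamine sites together kept a median of 82.6%, and the 25 other junction sites a median of 2.25%. Position is mixed into this contrast, since the 25 include all 5 C50 sites and no glutamine C50 was listed. The 25 ran from 0% up to 101% at Thr(CGT) C48, so high shares were not confined to glutamine. All 3 glutamine sites also lacked a value in some column.

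The number of loci behind a consensus was described in the same way. Of all 28 junction sites 25 were lost or reduced, and this held for all 17 sites of tRNAs with more than 10 loci, a share near that of the whole. The 11 junction sites of tRNAs with 10 or fewer loci held 8 lost or reduced sites and the 3 retained ones, Gln(CTG) C48 and C49 and Thr(CGT) C48. The set with fewer loci also held all 7 sites without a value in every column except Ala(AGC) C49, so locus number and completeness of measurement moved together. Their part in the retained calls was not tested.

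A pair of other libraries lacked TRM4B. The *trdmt1 trm4b* double mutant carries the *trm4b-1* allele and shares the wild type seedling mean, and *trm4b-2* is a second insertion allele sampled in mixed buds, with its own wild type library. The values stand side by side, since the wild type is shared in the first case and allele, tissue and experiment all changed in the second. At Asp(GTC) C49 the levels were 38% in *trm4b-1* and 48% in both other libraries, against 97% in both wild types. At Glu(TTC) C49 they were 32% in *trm4b-1*, 42% with *trdmt1* also mutated and 48% in *trm4b-2*, against 94% in seedlings and 95% in buds. Of the 7 C49 sites in loops of 4 bases outside glutamine, the share kept was higher than in *trm4b-1* at 6 in the double mutant and at all 7 in *trm4b-2*, with medians of 53.3% for *trm4b-1*, 54.4% for *trdmt1 trm4b* and 66.7% for *trm4b-2*. The *trm4b-1* library was thus at the low end for most of these 7 sites. His(GTG) C49 was lower in the double mutant, at 6% against 10% in *trm4b-1*. At Gln(CTG) C49 *trm4b-1* was the highest, at 100% against 88% in the double mutant and 91% in *trm4b-2*. In the study's list of libraries *trm4b-1* had the fewest reads of the 3. At C50 all 3 libraries stood at 0% or 1%.

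The sites with intermediate levels at C48 differed more between these libraries. Lys(CTT) C48 was at 54% in *trm4b-1* and 99% in the double mutant, against 88% in wild type seedlings, and at 67% in *trm4b-2*, against 90% in wild type buds. Gln(TTG) C48 was at 67% in *trm4b-1*, against 82% and 84% in the double mutant and *trm4b-2*. Its wild type level was 92% in seedlings and 86% in buds, so by the same rule neither of these libraries would be called reduced. Gln(CTG) C48 was at 71%, 88% and 93% in the same order. Thr(CGT) C48 lay between 84% and 89% in all 3. The level of Lys(CTT) C48 in *trm4b-1* therefore rests on a single library. Another library with the same allele stood above wild type, while *trm4b-2* differed from its own wild type by -23 points.

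**Figure D5:**
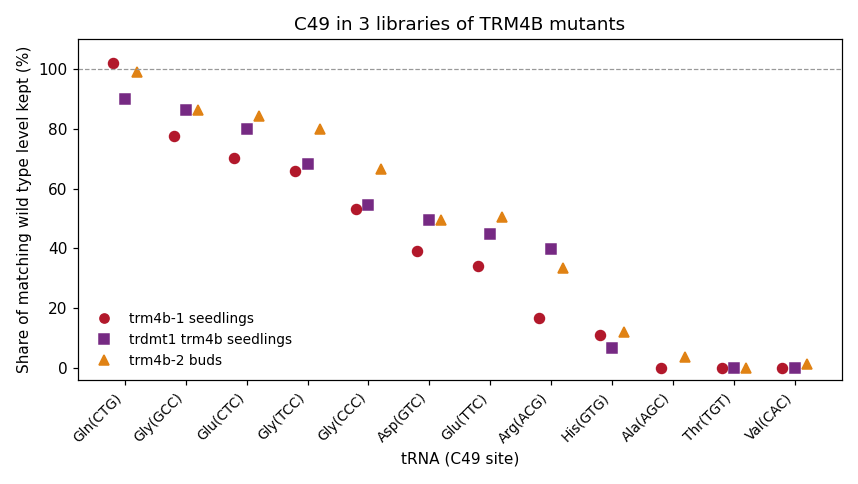
Share of the matching wild type level kept at C49, in percent, for the 12 tRNAs with a value in *trm4b-1* (circles), with the *trdmt1 trm4b* double mutant (squares) and *trm4b-2* buds (triangles), ordered by the share in *trm4b-1*. Asp(GTC) stands at 39.2% in *trm4b-1* and 49.5% in both other libraries, and Thr(TGT) at 0% in all 3.

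The other 7 listed sites had no value in *trm4b-1*. They were C48 of Arg(TCG), Ile(AAT), Leu(TAA), Lys(TTT) and Ser(CGA), at 80%, 33%, 72%, 66% and 83% in wild type, and C49 of Ala(CGC) and Ala(TGC), at 80% and 60%. All 7 belong to the junction, so the counts above leave out 5 of the 16 listed C48 sites and 2 of the 14 listed C49 sites, but no site at C38, C50 or C72. In the other libraries lacking TRM4B, Leu(TAA) and Ser(CGA) C48 were at 0% in the double mutant. Lys(TTT) C48 was at 22% in the double mutant, against 66% in wild type seedlings. In *trm4b-2* it was at 20%, against 73% in wild type buds. Ala(CGC) and Ala(TGC) C49 were at 3% and 4% in *trm4b-2*, against 58% and 70% in wild type buds. Arg(TCG) C48 was at 90% in *trm4b-2*, against 81% in wild type buds, and Ile(AAT) C48 at 25% in the double mutant, against 33% in wild type seedlings. The missing sites thus held low, intermediate and kept levels in related libraries, and their levels in *trm4b-1* are unknown. The gap between the sets of C48 sites described above holds for the compared sites alone.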

How the data were processed

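Per the study's methods, tRNA-sized RNA was cut from gels, converted with bisulfite and sequenced. The authors aligned filtered reads to 100 C-to-T converted consensus sequences of TAIR10 tRNAs, with CLC Genomics Workbench (version not given in the sources used here). The deposited values are percent methylation, rounded to whole percents. Those methods required 5 or more reads for a value and 20% or more for a site, so with few reads a level can move far by a single read. Cells marked N.D. hold no level and were dropped. Collapsed consensus sequences give 1 level for a family of loci, and bisulfite-resistant modifications other than m5C would be counted with it. In the study's list of libraries *trm4b-1* had the fewest reads of the gel-purified bisulfite libraries from seedlings and buds.

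Columns were matched to genotypes by name, with 0 columns of values left unmatched. Positions were counted from the 3′ end for C48 to C72 and from the anticodon for C38, and the base there was C at all 39 sites. The sites, thresholds and groupings were chosen with earlier results of these data known. All 32 sites with 2 values were named, as were the 7 without. Sequences shown were those of tRNAs with 2 or more sites and, among tRNAs with 1 site, those with the lowest and highest share kept, with His(GTG) and Gln(TTG) added after values were seen. Calls were checked on simulated data with fixed numbers of reads. The reads behind the deposited levels were unknown, so that check does not give the accuracy of the calls made here. Alternatives were other falls, lost levels, wild type minimums, a ratio, means, fully measured sites, and the median of wild type, *trm4a*, *nsun5-2* and *nop2a-2*. Python 3.11.15 and matplotlib 3.10.9 were used.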

Additional observations from a re-analysis of the deposited data

Results flagged for a closer look

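At 5 sites *trm4b-1* seedlings and *trm4b-2* buds lay on opposite sides of their own wild type. The difference between the effects, *trm4b-2* minus *trm4b-1*, was 18 points at Gln(CTG) C48, where *trm4b-1* differed from wild type by -15 points and *trm4b-2* by 3 points. C38 differed by 4 points in Gly(CCC), where *trm4b-1* gave -3 and *trm4b-2* 1, and by 3 points in Gly(GCC), where they gave -2 and 1. For C49 of Gln(CTG) the value was -3 points, from 2 in *trm4b-1* and -1 in *trm4b-2*. For C48 of Thr(CGT) it was also -3 points, from 1 in *trm4b-1* and -2 in *trm4b-2*. These differences were not tested, since each effect rests on 1 mutant library, and allele, tissue and experiment cannot be told apart.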

How the results depend on the processing

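Of 50 alternatives, 12 could not change their result, since they left the same sites or a single one. Of the rest, 33 stayed within 1.5 times for a count or within 9.06 points, the SD of differences from wild type in libraries with TRM4B unmutated, for a median or a range, and 5 did not. The count of 25 lost or reduced sites ran from 19, with a share kept below 50%, to 26, with a fall of 10 points. With means in place of medians, C48 gave -54.9 points and 29.8% kept. With fully measured sites alone, the share kept at C49 had a median of 46.3%, a lowest value of 11% and a highest of 77.7%. No paired analysis was possible because *trm4b-1* had 1 library and the wild type was deposited as a mean, and for the same reason no replicate could be left out. The reads per site were unknown, so no interval could be given for any level.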
